A study of Mus musculus with 10 samples.

Results

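H3K79me2, histone H3 dimethylated at lysine 79, was mapped by chromatin immunoprecipitation and sequencing (ChIP-seq) in mouse embryonic stem cells, with 1 library from untreated cells and 1 from cells given Adriamycin. The data are the peak lists that the authors deposited for those 2 libraries. All of their peaks on chromosomes 1 to 19 and X were taken, 63028 from untreated cells and 71934 after Adriamycin. These are 134962 of the 543318 peaks that the 10 lists of the study hold on the same chromosomes. The other lists are hnRNP L, H3K4me3, H3K27me3 and Pol II (RNA polymerase II), also with 1 library per condition, and they are used to describe the H3K79me2 peaks. Both groups were R1E cells of a C57BL/6X129Sv mix background, at fewer than 20 passages, kept in serum medium with leukemia inhibitory factor (LIF), a cytokine that holds mouse embryonic stem cells in the undifferentiated state. The untreated group received no drug and the other received 0.5 uM Adriamycin over 8 h. Adriamycin, also called doxorubicin, traps topoisomerase II on DNA and leaves double-strand breaks.

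H3K79me2 is written by Dot1l, the only enzyme known to methylate this lysine, which lies on the face of the nucleosome core and not in the histone tail. The mark covers the transcribed part of active genes, is densest downstream of the promoter and thins out along the gene body, and its placement is tied to Pol II elongation through proteins that bind Dot1l. H3K4me3 marks promoters, so an H3K4me3 peak at 1 end of an H3K79me2 region is used below as a sign of the side on which transcription may begin. H3K27me3 is the Polycomb mark of silent genes.

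A single line and a single library per target and condition stand behind each value. Differences between the lists therefore have no replicate check and no test of the treatment was possible. The sources used here do not give the read depth. Markers of the cell type and a gene annotation of mm9, the genome build of the files, were not used here. Positions are given on mm9, 1-based, without gene names. The label of the target was held against the other lists. In untreated cells 37.6% of H3K79me2 peaks (interval 37.2 to 37.9%) overlapped a Pol II peak, 22.3% (22.0 to 22.7%) an H3K4me3 peak and 3.03% (2.90 to 3.17%) an H3K27me3 peak. All intervals here are exact Clopper-Pearson 95% intervals and cover counting error within a list only.

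The first comparison asked how H3K79me2 peaks differed in number and width. The Adriamycin list held more peaks, and they covered less of the genome. The number went from 63028 to 71934 peaks and the covered length from 138.9 Mb to 130.1 Mb, a difference of -8.79 Mb. Both directions, and a narrower median peak, were found on 20 of 20 chromosomes. The ratio of peak numbers, Adriamycin over untreated, lay between 1.06 on chromosome X and 1.18 on chromosome 1.

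Sorted by width class, the extra peaks were narrow, and the classes of broad peaks held fewer bases. A broad peak that is broken moves its bases to narrower classes, so these differences are not all lost cover. Untreated peaks that each faced several Adriamycin peaks covered 34.5 Mb, and those Adriamycin peaks 32.7 Mb. Peaks under 500 bp numbered 3108 in untreated cells and 10499 after Adriamycin, and peaks from 500 bp to under 1 kb 24098 and 27699. Each class from 1 kb upward was smaller after Adriamycin. Peaks of 10 to 20 kb went from 1485 to 1133, a difference of -4.63 Mb, and peaks of 20 kb and over from 365 to 217, a difference of -4.26 Mb. The median width was 1143 bp in untreated cells and 934 bp after Adriamycin.

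**Figure D1:**
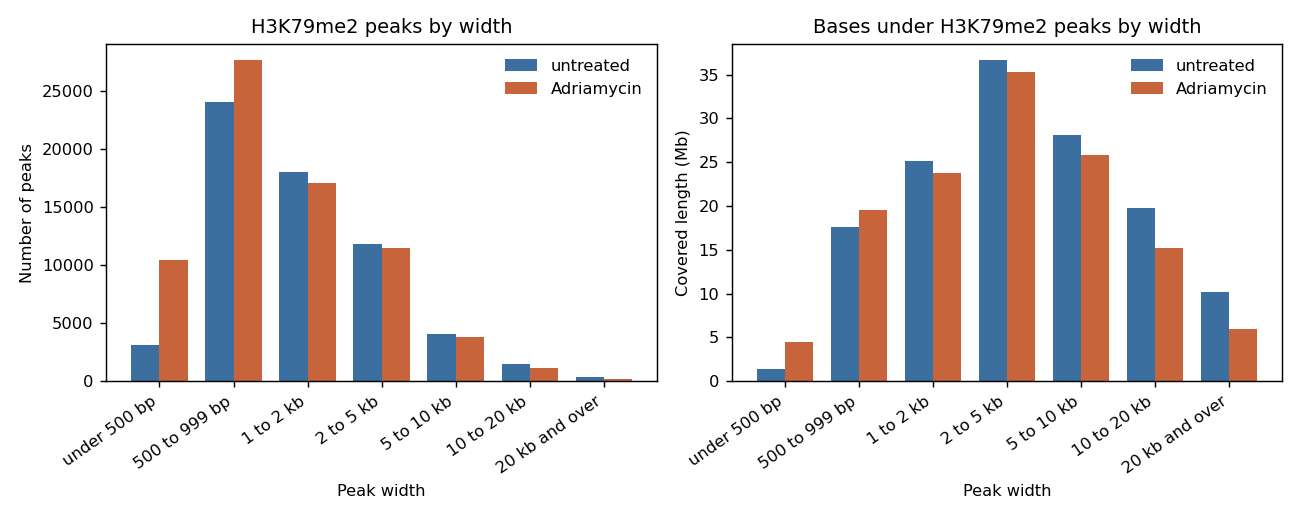
H3K79me2 peaks sorted by width. The left panel plots the number of peaks and the right panel the bases under them in Mb, with 1 bar per condition and width class. Peaks under 500 bp went from 3108 to 10499, while peaks of 20 kb and over went from 10.2 Mb to 5.98 Mb.

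The narrowest peak in the untreated list was 235 bp and in the Adriamycin list 164 bp, a difference of 71 bp. The narrowest peak differed between the conditions for the other targets too, from 171 to 125 bp for H3K4me3 and from 183 to 155 bp for H3K27me3, but from 135 to 184 bp for Pol II. To measure how much of the peak numbers moves with this, each Adriamycin H3K79me2 peak was widened by 71 bp and touching peaks were joined, an alternative chosen after the values were seen. The widened list held 59044 peaks, fewer than the 63028 of untreated cells. It covered 134.7 Mb, still 4.17 Mb less than the untreated list (a difference of -4.17 Mb). The higher peak number after Adriamycin thus turned with a change of 71 bp in width, and the lower covered length did not.

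Peaks were next chained by overlap across the lists, which shows what became of each untreated peak. A pairing of 1 untreated with 1 Adriamycin peak was found 27841 times. A single untreated peak faced several Adriamycin peaks in 7027 groups, which held 16281 Adriamycin peaks. The reverse, several untreated peaks under 1 Adriamycin peak, occurred in 2707 groups, and 4400 groups had several of each.

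Broken peaks were broken by short gaps. The 9254 gaps between the Adriamycin pieces of a single untreated peak had a median of 69 bp (quartiles 29 and 161 bp), and 106 of them were over 1 kb. The 3085 gaps between untreated pieces of a single Adriamycin peak had a median of 60 bp (quartiles 24 and 141 bp). The most broken untreated peaks lay on chromosome 4 at 54957343-54985673 (28.3 kb), chromosome 12 at 109468882-109513638 (44.8 kb) and chromosome 19 at 24208237-24239401 (31.2 kb), each in 10 pieces after Adriamycin. The pieces covered 24.2 kb on chromosome 4, 44.0 kb on chromosome 12 and 30.5 kb on chromosome 19. With Adriamycin peaks widened by 71 bp the order reversed, with 3268 split and 5198 joined groups.

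The widest untreated peaks were broken with little loss of cover. The widest untreated peak, on chromosome 14 at 22319854-22411431, spanned 91.6 kb as 1 peak. After Adriamycin 4 peaks covered 91.1 kb of it. Pol II peaks covered 28.3 kb of the same stretch in untreated cells and 10.4 kb after Adriamycin. The next widest, on chromosome 4 at 130218995-130305073 (86.1 kb), was also in 4 pieces that covered 85.5 kb, while Pol II peaks there went from 27.3 kb to 4.60 kb. The widest peak of the Adriamycin list, on chromosome 9 at 114413843-114473525, was 59.7 kb and lay wholly under a single untreated peak. The next widest of that list were each in 2 untreated pieces. On chromosome 1 at 120890878-120945715 (54.84 kb) these covered 54.76 kb, and on chromosome 12 at 103843887-103897766 (53.88 kb) 53.84 kb. Picking the widest peaks of 1 list favours breaks in the other.

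In the 1 to 1 pairs the difference in width hardly depended on how wide the peak was. The median difference, Adriamycin minus untreated, was -75 bp for pairs with a mean width under 1 kb, -90 bp at 1 to 2 kb, -105 bp at 2 to 5 kb, -96 bp at 5 to 10 kb and -91 bp at 10 kb and over. As a ratio that is 0.893 for the narrowest class and 0.994 for the widest. Of the 27841 pairs, 18625 (66.9%) were narrower after Adriamycin. Both edges took part, with a median inward shift of 27 bp on the left and 32 bp on the right. Ranks by score and by width were kept in part, with a Spearman correlation of 0.756 for score and 0.809 for width across the 27841 pairs, which share their 2 libraries.

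The bases covered in a single condition were then sorted by place. The lists shared 115.9 Mb, which is 83.4% of the untreated and 89.1% of the Adriamycin bases. Bases covered in untreated cells alone came to 23.0 Mb, of which 10.2 Mb lay in peaks without a partner, 10.5 Mb at the outer edges of partnered peaks and 2.35 Mb in gaps inside them. Bases covered after Adriamycin alone came to 14.2 Mb, with 8.20 Mb, 5.01 Mb and 1.03 Mb in the same places. Of the net difference of -8.79 Mb, edges made up -5.51 Mb, peaks without a partner -1.95 Mb and inner gaps -1.32 Mb. Outer edges held the largest part of the difference among these 3 places. The widening by 71 bp acts on these edges, and the split by place was not computed for the widened list.

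The second comparison asked which H3K79me2 peaks were found in only 1 condition. No overlapping peak in the other list was found for 11955 untreated peaks (19%) and 12927 Adriamycin peaks (18%). These were narrow and weak. Their median width was 703 bp in untreated cells and 536 bp after Adriamycin, against 1353 bp and 1120 bp for partnered peaks. The score is the authors' value for a peak, which this generation of the MACS peak caller writes as 10 times the negative log10 of a p-value, and here it only ranks peaks within a list. The median score was 71.5 and 69.1 for peaks without a partner, against 217.3 and 202.8 for partnered peaks.

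The share without a partner was lower at each higher score class up to 3100. At scores of 50 to 100 it was 43.9% in the untreated list (43.2 to 44.5%) and 41.6% in the Adriamycin list (41.0 to 42.2%). At 200 to 500 it was 2.93% (2.63 to 3.24%) and 1.68% (1.47 to 1.91%). At 3100 and above, where the scores reach a ceiling, it was 0.111% (0.0302 to 0.284%, 4 of 3605 peaks) and 0.345% (0.179 to 0.603%, 12 of 3474 peaks). Most peaks without a partner sat beside H3K79me2 of the other condition. The other list held a peak within 3 kb of 74.8% of them in untreated cells (74.0 to 75.6%) and of 77.3% after Adriamycin (76.5 to 78.0%). Only 2023 and 2025 peaks lay more than 5 kb away.

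**Figure D2:**
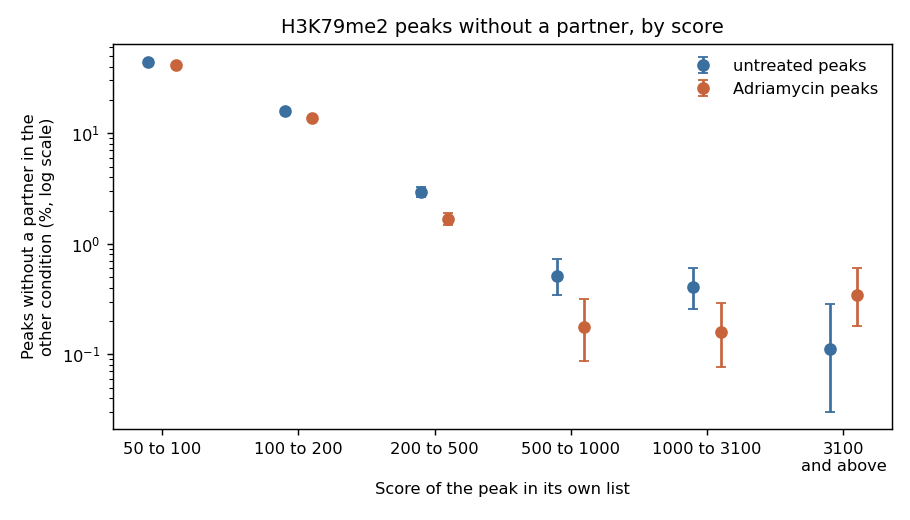
Share of H3K79me2 peaks without a partner in the other condition (%, log scale) by the peak's own score, with points for the untreated and the Adriamycin list and exact 95% intervals as bars. The share is 43.9% and 41.6% at scores of 50 to 100 and 0.111% and 0.345% at 3100 and above.

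Peaks of the 2 conditions were also sorted by Pol II at the same place. Among untreated H3K79me2 peaks of score 100 to 200, 24.2% (22.3 to 26.3%) had no partner where Pol II had a peak in untreated cells alone, 18.1% (16.6 to 19.8%) where Pol II had peaks in both conditions and 10.6% (8.03 to 13.7%) where Pol II had a peak after Adriamycin alone. Among Adriamycin H3K79me2 peaks of the same scores the order was the opposite. No partner was found for 22.7% (19.4 to 26.3%) at Pol II of Adriamycin cells alone, 9.94% (8.79 to 11.2%) at Pol II of both conditions and 7.36% (6.23 to 8.63%) at Pol II of untreated cells alone. Where Pol II had no peak in either condition the shares were 14.2% (13.5 to 14.9%) of untreated and 14.9% (14.3 to 15.6%) of Adriamycin peaks, against 15.9% and 13.6% over all peaks of these scores. Over peaks of any score, places without Pol II were near those with Pol II in the same condition alone, at 21.8% against 22.2% in untreated cells and 22.9% against 23.7% after Adriamycin. The peaks are neighbours in shared libraries and not replicates, so the intervals leave out the spread between cultures.

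The third comparison took H3K79me2 as domains. Peaks of a list were joined over gaps of up to 3 kb. The untreated list gave 15040 domains with a span of 167.7 Mb, and the Adriamycin list 15235 with 162.3 Mb. Within them peaks covered 82.8% of the span in untreated cells and 80.1% after Adriamycin. Domains of 5 kb and over held 3.39 peaks per 10 kb in untreated cells and 4.03 after Adriamycin, a denser row of narrower peaks over similar stretches. This density follows the peak number, which turned with the 71 bp widening, and it was not computed for the widened list.

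No domain of 50 kb and over was without a counterpart. All 499 untreated domains of that length met an Adriamycin domain, and 177 of them (35.5%) met several. The 444 Adriamycin domains of that length all met an untreated one, and 87 (19.6%) met several. Short domains were different. Of 7413 untreated domains under 5 kb, 2775 (37.4%) met none, and of 7673 Adriamycin domains under 5 kb, 2635 (34.3%) met none.

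In the 5 longest untreated domains H3K79me2 peaks covered over 90% of the span in both conditions, while Pol II cover was higher after Adriamycin in 1 and lower in 4. On chromosome 15 at 61869142-62077599 (208.5 kb), H3K79me2 covered 95.3% of the span in untreated cells and 94.6% after Adriamycin. Pol II peaks there covered 36.1 kb and 94.6 kb. On chromosome 13 at 44809821-45015306 (205.5 kb), H3K79me2 covered 97.8% and 95.4%, and Pol II peaks 45.9 kb and 8.49 kb. The domain on chromosome 11 at 107121777-107333376 had H3K79me2 over 92.3% and 91.0% of its span and Pol II over 52.8 kb and 9.87 kb. On chromosome 14 at 22286909-22490277 the H3K79me2 cover was 95.01% and 92.7%, with Pol II over 78.7 kb and 33.6 kb. The fifth, on chromosome 5 at 119010459-119213134, met 3 Adriamycin domains. Its H3K79me2 cover was 94.3% and 90.5%, and its Pol II cover 37.3 kb and 23.0 kb. No H3K27me3 peak lay in any of these 5 domains in either condition. Such a peak was uncommon at this length, found in 16.0% of the 612 stretches of 50 kb and over when both lists were joined.

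Both lists were then joined over gaps of up to 3 kb into 15479 shared regions, so that neither condition sets the borders alone. H3K79me2 was present in both conditions in 11507 of them, in untreated cells alone in 2066 and after Adriamycin alone in 1906. Presence in both, for which 1 peak of each list is enough, went with length. It held for 28.7% of the 4919 regions under 2 kb and 97.6% of the 2486 regions of 5 to 10 kb. At 50 kb and over it held for 100% of the 612 regions. The covered length of each region was compared as a log2 ratio, Adriamycin over untreated, with 1 kb added to each side. Its median was -0.08. A region was called changed past 1.5-fold on that scale. This held for 17.8% of all regions in the lower direction (2753) and 9.96% in the higher (1541), and for 7.65% (610) and 3.47% (277) of the 7973 regions of 5 kb and over. Regions of 50 kb and over had the narrowest spread, with a median of -0.06 (quartiles -0.13 and -0.01), 6 called lower and 6 called higher.

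The fourth comparison asked where along a region H3K79me2 differed. An H3K4me3 peak found in both conditions lay within 2 kb of exactly 1 end in 5189 of the 7973 regions of 5 kb and over (65.1%, interval 64.0 to 66.1%). It lay at both ends in 1029, only inside in 631 and nowhere in 1124. Regions without H3K4me3 were thinly covered, with peaks over 47.0% of their length in untreated cells and 43.3% after Adriamycin, against 78.6% and 74.4% in those with H3K4me3 at 1 end.

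The 5189 regions were cut into 10 equal parts, counted from the H3K4me3 end. H3K79me2 thinned out along the region in both conditions. In untreated cells the cover was 90.01% in part 1, 82.2% in part 5 and 60.7% in part 10. After Adriamycin it was 82.9%, 79.2% and 52.5%. The difference was -7.15 percentage points in part 1 and -8.19 in part 10, and between -2.57 and -5.02 in the parts between them (mean -3.30). With Adriamycin peaks widened by 71 bp the values were -4.86 in part 1, -4.51 in part 10 and a mean of -1.05 between them. Pol II cover in the same regions was lower in each of the 10 parts. It went from 37.8% to 30.4% in part 1, a ratio of 0.803, and from 16.1% to 9.72% in part 5, a ratio of 0.605. For H3K79me2 those ratios were 0.921 and 0.963.

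**Figure D3:**
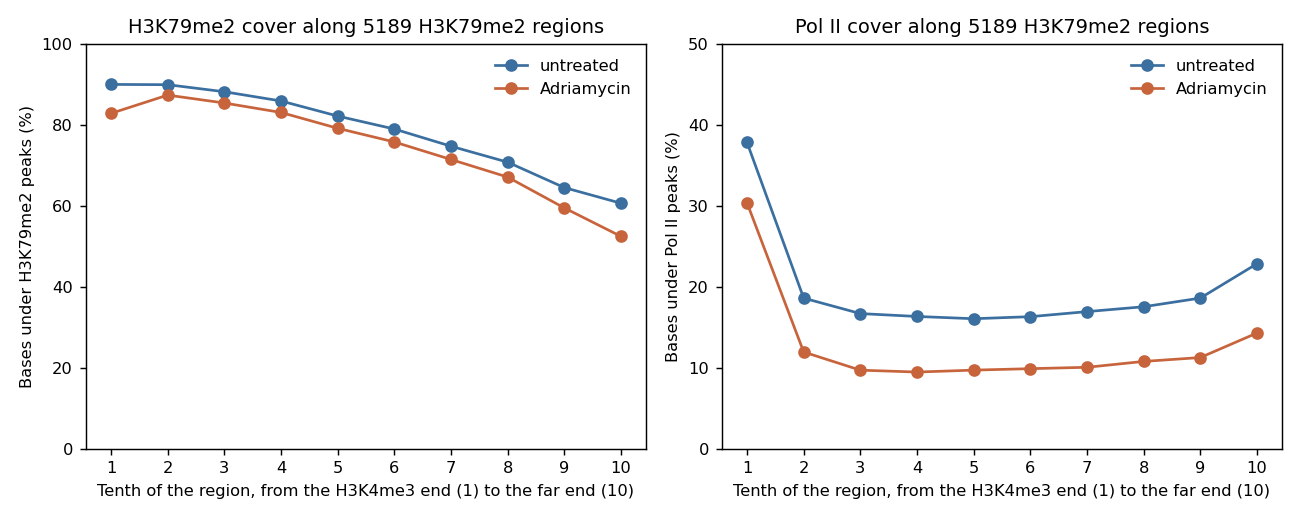
Share of bases under H3K79me2 peaks (left) and Pol II peaks (right) in 10 equal parts of the 5189 regions with H3K4me3 at 1 end, from that end (1) to the far end (10), with 1 line per condition. The Adriamycin line is lower in each part for both targets, and H3K79me2 differs most in parts 1 and 10.

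In base pairs the loss at the H3K4me3 end was short. In the 2046 regions of 20 kb and over, the first 200 bp were under H3K79me2 peaks for 84.9% of bases in untreated cells and 53.4% after Adriamycin. From 2 to 5 kb the values were 92.1% and 89.7%, and from 5 to 10 kb 89.9% and 87.6%. The far end differed over a longer stretch. Its last 200 bp went from 66.7% to 53.3%, and the stretch from 1 to 2 kb inside it from 51.5% to 43.9%. Since the outermost peak of either list sets the border of a region, the list with narrower peaks falls short of it more often.

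End positions were compared next, and their median shift was larger at the H3K4me3 end than at the far end. Among 5166 of these regions with peaks in both conditions, the H3K4me3 end lay inward after Adriamycin in 3626 (70.2%), with a median shift of -71 bp. The far end lay inward in 2958 (57.3%), with a median of -44.5 bp but a wide spread (quartiles -792.75 and 530.75 bp). It was over 1 kb shorter in 1145 regions and over 1 kb longer in 964. The excess depended on which list set the domain. Counted from untreated domains, the Adriamycin far end was over 1 kb shorter in 1071 and longer in 1130, and counted from Adriamycin domains shorter in 1379 and longer in 873. With Adriamycin peaks widened by 71 bp the medians were -35 bp and -9 bp.

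A few far ends moved far with their bases. On chromosome 12 at 87774848-87863636, an untreated domain of 88.8 kb with H3K4me3 at its left end, the Adriamycin domain stopped 21.2 kb earlier (a shift of -21.2 kb), and H3K79me2 cover went from 79.4 kb to 54.8 kb. On chromosome 2 at 129021980-129037342 cover went from 15.3 kb to 1.34 kb with a shift of -14.1 kb, and Pol II peaks there covered 8.79 kb and 5.84 kb. The longest extension by rule, on chromosome 19 at 24186598-24192759, reached 107.0 kb further after Adriamycin. It was a bridged gap, since H3K79me2 over the whole stretch covered 103.7 kb untreated and 99.5 kb after Adriamycin. The next longest extension, on chromosome 8 at 125496859-125570346, reached 89.4 kb further and did so with bases. H3K79me2 over that whole stretch covered 86.7 kb untreated and 159.4 kb after Adriamycin.

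The fifth comparison asked what else lay at H3K79me2 peaks. After Adriamycin a Pol II peak was found at 25.7% of them (25.4 to 26.1%), against 37.6% in untreated cells, and an H3K4me3 peak at 18.7% (18.4 to 19%), against 22.3%. H3K27me3 was at 2.15% (2.04 to 2.25%), against 3.03%. H3K79me2 peaks with neither Pol II nor H3K4me3 made up 58.2% (57.8 to 58.5%) in untreated cells and 68.8% (68.5 to 69.1%). The Pol II and H3K27me3 lists were themselves shorter after Adriamycin, with 59422 against 81060 peaks and 88363 against 97635, while the H3K4me3 list was longer, with 41699 against 38415. How far those list lengths enter the shares was not tested. The H3K4me3 difference of -3.63 percentage points was -1.36 with Adriamycin H3K79me2 peaks widened by 71 bp and -2.01 with H3K79me2 lists of equal length. hnRNP L, an RNA-binding protein with few peaks, was found at 72 and 81 H3K79me2 peaks.

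H3K79me2 cover was then read by the Pol II state of the region, over the 7973 regions of 5 kb and over. Where Pol II had peaks in both conditions (6431 regions) the median log2 ratio of H3K79me2 was -0.07. It was -0.21 in the 523 regions with Pol II in untreated cells alone and 0.11 in the 160 regions with Pol II after Adriamycin alone. The 859 regions with no Pol II peak had a median of -0.07. Regions called lower made up 21.0% (110) of those with Pol II in untreated cells alone, against 7.65% of all regions of this length. Regions called higher made up 28.8% (46) of those with Pol II after Adriamycin alone, against 3.47% of all. Regions without any Pol II peak, of similar length (median 8.39 kb against 9.87 kb for Pol II in untreated cells alone and 10.4 kb for Pol II after Adriamycin alone), were called lower in 17.1% (147) and higher in 10.7% (92). With equal numbers of top-scoring peaks in each H3K79me2 list and the same 5 kb minimum, the median for Pol II after Adriamycin alone was -0.00477, so its sign turned.

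**Figure D4:**
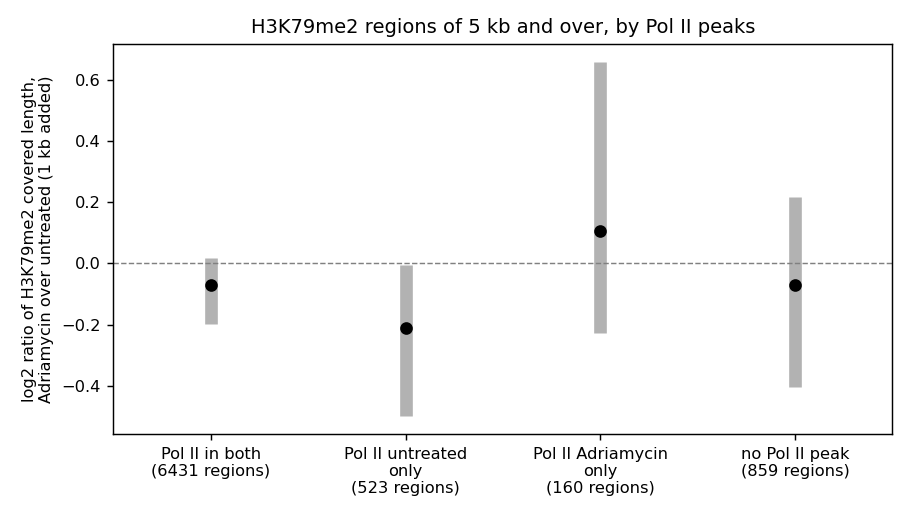
log2 ratio of H3K79me2 covered length, Adriamycin over untreated with 1 kb added, in regions of 5 kb and over sorted by Pol II peaks. Points are medians over regions and bars span the quartiles. The medians are -0.07 with Pol II in both conditions, -0.21 with Pol II in untreated cells alone, 0.11 with Pol II after Adriamycin alone and -0.07 without Pol II.

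The size of the Pol II difference gave a graded picture. The 5746 regions compared were those with at least 1 kb under Pol II peaks in either condition. Where Pol II cover was lower 2-fold or more after Adriamycin (1126 regions), the median log2 ratio of H3K79me2 was -0.12. It was -0.09 at 1.5- to 2-fold lower (1193 regions), -0.06 within 1.5-fold (3188 regions) and 0.11 at 1.5-fold or more higher (239 regions), where 23.0% of regions were called higher. Across the 5746 regions the Spearman correlation was 0.232 and Pearson's 0.259, a weak relation over regions that share their libraries. The median Pol II log2 ratio was -0.45 and that of H3K79me2 -0.07. Regions with H3K27me3 in both conditions (678) had a lower H3K79me2 median, -0.15, than the 6944 without H3K27me3, at -0.07.

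Single regions were then ranked by the difference in covered length. The largest gain in covered length was on chromosome 8 at 125407423-125570346 (162.9 kb), where H3K79me2 peaks covered 86.7 kb untreated and 159.4 kb after Adriamycin. Pol II peaks covered 34.95 kb and 28.0 kb of it and H3K4me3 peaks 9.54 kb and 13.6 kb. The untreated list had no H3K79me2 peak over 75.2 kb in its middle (125421681-125496858), where the Adriamycin list had 5 peaks with a top score of 3100. On chromosome 7 at 140167153-140235290 H3K79me2 went from 8.02 kb to 58.5 kb, while Pol II went from 43.9 kb to 29.9 kb. On chromosome 2 at 24737017-24775163 it went from 4.39 kb to 36.4 kb, with Pol II at 1.06 kb and 0.996 kb. At these 3 regions H3K79me2 was higher where Pol II cover was lower or nearly level.

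At 2 other gains Pol II cover was higher after Adriamycin too. On chromosome 12 at 17697569-17793241 H3K79me2 covered 40.2 kb and 76.4 kb, and Pol II 1.31 kb and 25.9 kb. On chromosome 2 at 35471093-35570426 H3K79me2 covered 22.1 kb and 89.7 kb, and Pol II 14.6 kb and 34.0 kb.

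The largest loss was on chromosome 8 at 89362767-89416032 (53.3 kb). H3K79me2 covered 51.4 kb untreated and 2.05 kb after Adriamycin. Pol II peaks covered 16.7 kb and 13.7 kb there and H3K4me3 peaks 15.0 kb and 21.7 kb, so peaks of both were still listed there. On chromosome 4 at 141727828-141795356 H3K79me2 went from 64.3 kb to 29.3 kb and Pol II from 11.7 kb to 7.15 kb. On chromosome 4 at 34752301-34831310 H3K79me2 went from 62.1 kb to 28.6 kb and Pol II from 10.5 kb to 2.64 kb. On chromosome 1 at 120783489-120952917 H3K79me2 went from 168.4 kb to 142.6 kb and Pol II from 55.2 kb to 4.81 kb. None of the named gains and losses held an H3K27me3 peak in either condition. The same was true of 6944 of the 7973 regions of 5 kb and over.

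**Figure D5:**
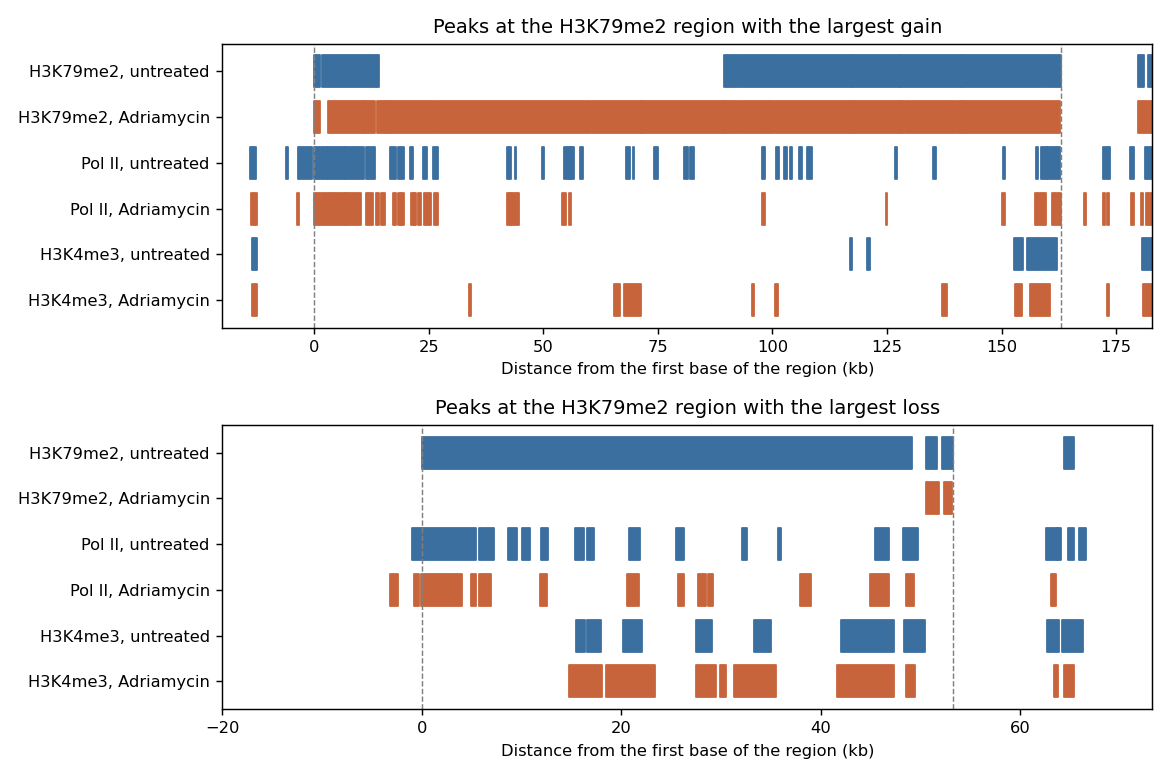
Peaks of H3K79me2, Pol II and H3K4me3 in both conditions at the H3K79me2 regions with the largest gain (top) and the largest loss (bottom) in covered length, as distance from the first base of the region in kb, with dashed lines at the region's borders. Bars are peaks to scale. H3K79me2 covers 86.7 kb and 159.4 kb at the gain and 51.4 kb and 2.05 kb at the loss, while Pol II peaks are present in both conditions at both.

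Windows of 100 kb gave a view free of joining. Of 5585 windows with at least 5 kb of H3K79me2 in either condition, 4064 (72.8%) had less cover after Adriamycin, and the median log2 ratio was -0.08. Past 1.5-fold, 4.32% (241) were lower and 2.01% (112) higher. A loss not seen among the 5 top regions lay on chromosome 3 at 130800001-130900000, where H3K79me2 covered 55.0 kb untreated and 24.6 kb after Adriamycin. Pol II covered 6.65 kb and 0.971 kb of that window, and H3K27me3 11.5 kb and 9.11 kb.

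The 5 highest-scoring H3K79me2 peaks taken from each list were then held against the other list. The highest score was 3233.06 in both lists, and peaks tied at it in each. At 1 such peak of untreated cells, on chromosome 5 at 135536520-135543996, cover was 7.48 kb untreated and 7.23 kb after Adriamycin. Such a peak of the Adriamycin list, on chromosome 9 at 115194617-115219590, covered 24.97 kb, of which 3 untreated peaks covered 24.8 kb. Each of the 5 top peaks taken from a list had peaks of the other list under it. The 5 taken from the Adriamycin list all tied at 3233.06. Those on chromosome 12 at 76662667-76670045 and chromosome 15 at 103031186-103038140 held no Pol II, H3K4me3 or H3K27me3 peak in either condition. Among peaks over 5 kb from the other list, the strongest of untreated cells was on chromosome 4 at 34808518-34810097 (1.58 kb, score 1827.71), inside the region named above. After Adriamycin the 5 listed peaks of this kind all tied at 3100, the ceiling, so none can be called the strongest. The widest of those 5 was on chromosome 7 at 140195699-140235290 (39.6 kb), also inside a region named above.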

How the data were processed

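ChIP-seq peak lists of 5 targets in mouse embryonic stem cells, each with 1 untreated and 1 Adriamycin library, were used as the authors deposited them. MACS 1.4.1, CASAVA 1.8.2 and the build mm9 are listed, with no role or setting, per the submitters' processing notes. Each deposited peak has a position and a score, the only value per peak, and the lowest score of 50 stands for a p of 1e-05. Scores of 3100 and above were treated as a ceiling. With a list for each library, peaks were taken as called per library. The sources used here do not state depth, input control or duplicate handling, so sensitivity is unknown and no floors were computed.

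Overlap needed at least 1 bp. Domains join peaks of a list, and regions peaks of both lists, over gaps of up to 3 kb. Regions had to be 5 kb or longer for the analysis of ends, with H3K4me3 within 2 kb of an end. Covered lengths were compared as log2 ratios with 1 kb added. The treatment was not tested, for want of replicates. Scripts were tested on simulated data with planted partners, splits and end shifts. Regions were named by rank: the longest domains, the highest-scoring peaks with and without a partner, and the largest gains and losses in regions, windows and far ends, of which the text prints part. The widest and the most broken peaks, the 71 bp widening and the stretches of 10 kb and over without a peak were added after their values were seen. The members and lists were chosen with earlier results of these data known. Planned gene lists, cell type markers and sequences were not analysed here, since the tables used with gene positions are on another build than mm9 and positions were not carried over. Alternatives tried were score minima, equal list lengths, merging, other overlaps, joining gaps, H3K4me3 distances and window sizes, and leaving out chromosome X. Calculations were run with pandas 2.3.3, SciPy 1.17.1 and numpy 2.4.6 on Python 3.11.15, and figures with matplotlib 3.10.9.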

Additional observations from a re-analysis of the deposited data

Results flagged for a closer look

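Chromosome Y lies outside the comparisons above, and it also held H3K79me2 peaks. Each list had 25 peaks there, covering 21.0 kb untreated and 16.1 kb after Adriamycin, and 21 of the 25 in each list had a partner in the other. They lay between 346797 and 622747 in untreated cells and between 347003 and 622468 after Adriamycin. The median score was 84.7 in untreated cells and 105.6 after Adriamycin.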

How the results depend on the processing

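Of 146 alternative values over the 24 results that are signed differences or log2 ratios, 137 kept their sign, 8 reversed and 1 was 0. No paired analysis was possible because each condition had 1 library and the labels carry no replicate numbers. The cause of the changes below was not tested. Depth is unknown, so it cannot be said which weak peaks were within reach of each library.

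With Adriamycin peaks widened by 71 bp, chosen after the values were seen, the difference in peaks was -3984, in peaks without a partner -35, and in split minus joined groups -1930. Covered bases differed by -4.17 Mb, the median width by -83 bp, and 76.2% of bases in either list were shared. The median log2 ratio was -0.0362 over regions and -0.0375 over windows, with higher minus lower counts of -503 and -37. The H3K4me3 end shifted by -35 bp and the far end by -9 bp, the H3K4me3 share by -1.36 points, and the median at Pol II of untreated cells alone was -0.14.

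With lists of equal length, by top score, the difference in peaks was 0 by construction, in peaks without a partner -6339, in covered bases -13.5 Mb and in median width -81 bp, with 75.5% of bases shared. Domains of at least 20 and 50 kb differed by -286 and -83. Median log2 ratios were -0.15 over regions and -0.13 over windows, with higher minus lower counts of -2424 and -312. The far part differed from the inner parts by -8.91 points, the ends shifted by -80 and -104.5 bp, and far ends over 1 kb shorter exceeded longer ones by 765. The H3K4me3 share differed by -2.01 points, and the medians at Pol II of 1 condition alone were -0.29 (untreated) and -0.00477 (Adriamycin).

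At scores of at least 100 the difference was 5013 peaks, and -274 in peaks without a partner (-177 when held against any peak), with 76.7% of bases shared and a window median of -0.0878. With peaks within 1 kb merged it was 1075 peaks, -87 without a partner and 837 groups, with 78.3% shared. Without chromosome X 75.8% was shared. At an overlap of 50% of both peaks the difference without a partner was 8906, and at 50% of the shorter peak the median at Pol II of untreated cells alone was -0.16. A joining gap of 1 kb gave a region median of -0.0736 and a higher minus lower count of -2219. Windows of 50 and 200 kb gave medians of -0.0721 and -0.0859 and counts of -225 and -60.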

Other observations

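Some stretches of at least 10 kb held no H3K79me2 peak in 1 list and at least 5 kb of peaks in the other. This measure was chosen after the values were seen. There were 64 such stretches without an untreated peak and 115 without an Adriamycin peak. In 7 and 6 of them the other list covered 20 kb or more. Pol II had peaks in both conditions in 6 of those 7 and 5 of those 6. Over all such stretches the counts were 51 of 64 (79.7%) and 75 of 115 (65.2%). Among shared regions, Pol II peaks in both conditions were found in 65.2% at 5 to 10 kb, 81.7% at 10 to 20 kb and 91.5% at 20 to 50 kb. The stretches were not matched to these regions in length. Pol II cover was higher in the condition with the H3K79me2 peaks in 44 of the 64 stretches (68.75%) and 77 of the 115 (67.0%). Over the 5746 regions compared above, Pol II cover was lower after Adriamycin (median log2 ratio -0.45). Each direction therefore has its own base share, which was not computed for such stretches.

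The first example lies on chromosome 11 at 8445875-8475955, where the Adriamycin list had 29.2 kb of H3K79me2 and the untreated list none. H3K4me3 peaks covered 10.99 kb of it untreated and 5.99 kb after Adriamycin, and Pol II peaks 6.46 kb and 3.98 kb. On chromosome 17 at 24361366-24383052 the Adriamycin list had 20.8 kb of H3K79me2 and the untreated list none, with Pol II over 16.7 kb and 13.7 kb and no H3K4me3 peak in either condition. On chromosome 4 at 106591342-106626112 the Adriamycin list had 29.5 kb, with Pol II at 0 kb untreated and 1.21 kb after Adriamycin. In the other direction, chromosome 12 at 87842402-87864015 had 20.8 kb in untreated cells and none after Adriamycin, with Pol II over 20.7 kb and 18.0 kb. At these 4 places H3K79me2 was listed in 1 condition alone, with Pol II peaks in both at 3 of them. They are examples and do not stand for all such stretches. On chromosome 4 at 34793395-34825153, without an Adriamycin H3K79me2 peak, Pol II went from 2.46 kb to 0 kb. On chromosome 1 at 120866658-120888811, also without one, Pol II went from 9.32 kb to 0.621 kb.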
